A study of Homo sapiens with 36 samples.

Results

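The proteasome genes examined here were 34 subunits listed by name, by a rule that uses no measured value but was drawn up with earlier results of these data known, out of 54583 genes in each deposited table. They were 7 alpha and 7 beta subunits of the 20S core, 6 ATPases and 4 non-ATPase subunits of the base, 8 subunits of the lid, and 2 activators, PSME3 and PSME4. Reads were counted per gene in polyA RNA of MDA-MB-231, a line of triple-negative breast cancer cells kept in medium with serum. The study asked how proteasome inhibitors act on transcription alone or with SHP1705, a compound that stabilizes the clock repressor cryptochrome. The 36 libraries formed 3 sets of 12, and each set had its own table with 4 groups of 3 libraries. In the MG132 set the cells received DMSO, SHP1705 at 10 µM, MG132 at 100 nM, or SHP1705 at 10 µM with MG132 at 100 nM, for 8 h. In the carfilzomib sets they received DMSO, SHP1705 at 10 µM, carfilzomib at 10 nM, or SHP1705 at 10 µM with carfilzomib at 10 nM, for 8 h or for 24 h. Groups given SHP1705 and an inhibitor together are called the combination. DMSO is the solvent in which every drug was added, so all groups received it. All libraries came from a single cell line, and no source used here says whether the replicates were separate cultures, so a p-value reflects only how much these libraries vary, possibly for technical reasons.

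The proteasome is the protease complex that degrades proteins tagged with ubiquitin. Its core is a barrel of alpha and beta rings, and 3 of the beta subunits cut peptides inside it. The base unfolds substrates with a ring of ATPases and binds ubiquitin chains, and the lid removes those chains before the substrate enters the core. When the proteasome is inhibited, cells are known to raise transcription of the subunit genes through the transcription factor NFE2L1 (NRF1), which binds antioxidant response elements in subunit promoters. MG132, a reversible peptide aldehyde, and carfilzomib, an irreversible epoxyketone, both act mainly on the beta subunit encoded by PSMB5.

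The 34 genes lie on 13 chromosomes of GRCh38.p14 in RefSeq, and RefSeq promoter windows were found for 29 of them (250 bases before to 50 after the annotated start). No window was matched for PSMA7, PSMB1, PSMB6, PSMB7 or PSMD4. The core of the antioxidant response element, TGACNNNGC on either strand, occurred in 7 of the 29 windows (24.1%) and in 13.3% of 35116 windows of all genes. The matches were TGACTTTGC in PSMB3, GCTTGGTCA in PSMC4, TGACTGAGC in PSMD1, TGACTCGGC and GCTCCGTCA in PSMD3, TGACGCTGC in PSMD12, TGACACAGC in ADRM1 and GCAGCGTCA in PSME4. Matches that begin with GC are the element on the opposite strand. The heat shock element core GAANNTTC, whose reverse complement has the same letters, was in 0 of the 29 windows and in 6.77% of all windows. CCAAT on either strand was in 16 of 29 (55.2%) against 34.6%. The windows of 4 genes are printed because these genes gave the largest and the smallest changes described next, with capitals marking the response element core.
PSMC4, chr19:39970915-39971214, plus strand: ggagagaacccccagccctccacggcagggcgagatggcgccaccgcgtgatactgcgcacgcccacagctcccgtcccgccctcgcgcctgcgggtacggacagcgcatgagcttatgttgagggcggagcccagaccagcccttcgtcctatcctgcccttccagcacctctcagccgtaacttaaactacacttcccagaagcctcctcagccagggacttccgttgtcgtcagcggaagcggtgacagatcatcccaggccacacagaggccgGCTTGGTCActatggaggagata
PSMD14, chr2:161308175-161308474, plus strand: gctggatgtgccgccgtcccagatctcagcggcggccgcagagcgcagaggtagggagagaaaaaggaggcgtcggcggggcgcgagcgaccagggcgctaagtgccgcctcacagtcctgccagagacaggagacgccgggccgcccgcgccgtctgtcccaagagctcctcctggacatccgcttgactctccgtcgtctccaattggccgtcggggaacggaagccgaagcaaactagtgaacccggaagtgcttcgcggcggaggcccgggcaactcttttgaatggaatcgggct
PSMD7, chr16:74296564-74296863, plus strand: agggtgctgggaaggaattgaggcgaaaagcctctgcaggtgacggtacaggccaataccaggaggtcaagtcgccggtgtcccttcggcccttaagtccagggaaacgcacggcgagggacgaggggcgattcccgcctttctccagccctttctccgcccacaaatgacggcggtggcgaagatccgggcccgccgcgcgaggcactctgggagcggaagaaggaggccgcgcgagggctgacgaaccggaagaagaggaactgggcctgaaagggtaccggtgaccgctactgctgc
PSME3, chr17:42833147-42833446, plus strand: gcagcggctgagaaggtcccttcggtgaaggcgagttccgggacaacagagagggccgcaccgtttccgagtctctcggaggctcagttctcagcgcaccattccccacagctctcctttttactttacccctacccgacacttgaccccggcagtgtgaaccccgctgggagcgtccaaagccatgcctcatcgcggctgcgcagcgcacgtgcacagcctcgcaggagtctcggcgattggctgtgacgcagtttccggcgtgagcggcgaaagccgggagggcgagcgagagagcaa
Of these 4, PSMC4 holds 1 match, which starts 28 bases after the annotated start, and the windows of PSMD14, PSMD7 and PSME3 hold none. A match describes the letters of a window and is not evidence of binding.

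The MG132 set had 34200000 to 39300000 counts per library. The range with carfilzomib was 17800000 to 27700000 at 8 h and 18900000 to 34000000 at 24 h. All 34 subunits passed the filter on low counts in every table, with 1503 to 44503 counts per library. Together they took 0.676 to 1.06% of a library's counts with MG132, and 0.790 to 1.37% (8 h) or 0.714 to 1.33% (24 h) with carfilzomib. Levels are CPM, read counts scaled to a common library total, with TMM factors, fold changes are log2 values from edgeR with their standard errors, and a gene is called when its Benjamini-Hochberg adjusted p over all genes tested is under 0.05. The 6 markers of the line, VIM among them, were above 1 CPM in every library. Of 4 genes listed as at or near 0 in the line, ESR1 and PGR were under 1 CPM in every library. EPCAM was not near 0, at 5.99 to 26.3 CPM, and CDKN2A, also on that list, is given after POSTN. In the MG132 set, POSTN, a fibroblast gene at 0.110 to 0.255 CPM in DMSO, was above 20 CPM in the combination and in 4 more libraries, SHP1705 replicates 2 and 3 and MG132 replicates 1 and 3. CDKN2A in this set was at 0 to 0.0276 CPM in DMSO, 3.08 to 7.58 in the combination and 5.04 in MG132 replicate 3. With carfilzomib at 8 h CDKN2A was at 0.126 to 0.797 CPM in libraries labelled DMSO and 1.84 to 2.48 in those labelled combination. Of a list of 10 fibroblast genes, 3 were above 1 CPM in every DMSO library and 6 in every combination library. The summed level of the list was 18.2 to 19.7 CPM in DMSO, 17.9 to 55.4 with SHP1705, 18.0 to 205 with MG132 and 127 to 283 in the combination. POSTN made up most of the sum in the combination (98.3 to 242 CPM), where CDH2 and COL1A1 were also higher than in DMSO. COL1A2 overlapped DMSO (7.13 to 7.62 against 6.65 to 8.13 CPM), and DCN reached only 0.171 CPM. In the carfilzomib set at 8 h the levels of HSPA1A and PER3 went against the labels of several libraries, as described with that set.

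In DMSO the 34 genes spanned a wide range of levels per kilobase. The length used merges all annotated exons of a gene. For some genes it far exceeds the median transcript (4665 against 773 bases for PSMA4, 4219 against 1370.5 for PSMD11). The ranks, medians and spreads given next therefore depend on the annotation. Per kilobase of exon, PSMB3, a beta subunit, was highest in the MG132 set at 360 CPM per kb, and PSME4, the activator PA200, was lowest at 16.1, a 22.4-fold range. The median level was 105 CPM per kb for the alpha ring, 198 for the beta ring, 65.1 for the ATPases, 131 for the other base subunits and 67.9 for the lid. Lid genes were the most even of the core, base and lid groups, from 38.5 for PSMD11 to 86.7 for PSMD3, an SD of 0.437 on the log2 scale against 0.795 to 1.14 in the other 4 groups. PSMB3 and PSME4 were again highest and lowest in DMSO at 24 h, at 413 and 11.8 CPM per kb. Across groups of 3 libraries, the median coefficient of variation of a subunit's level was 2.53% in the MG132 set and 2.62% at 24 h, but 17.9% in the carfilzomib set at 8 h.

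**Figure D1:**
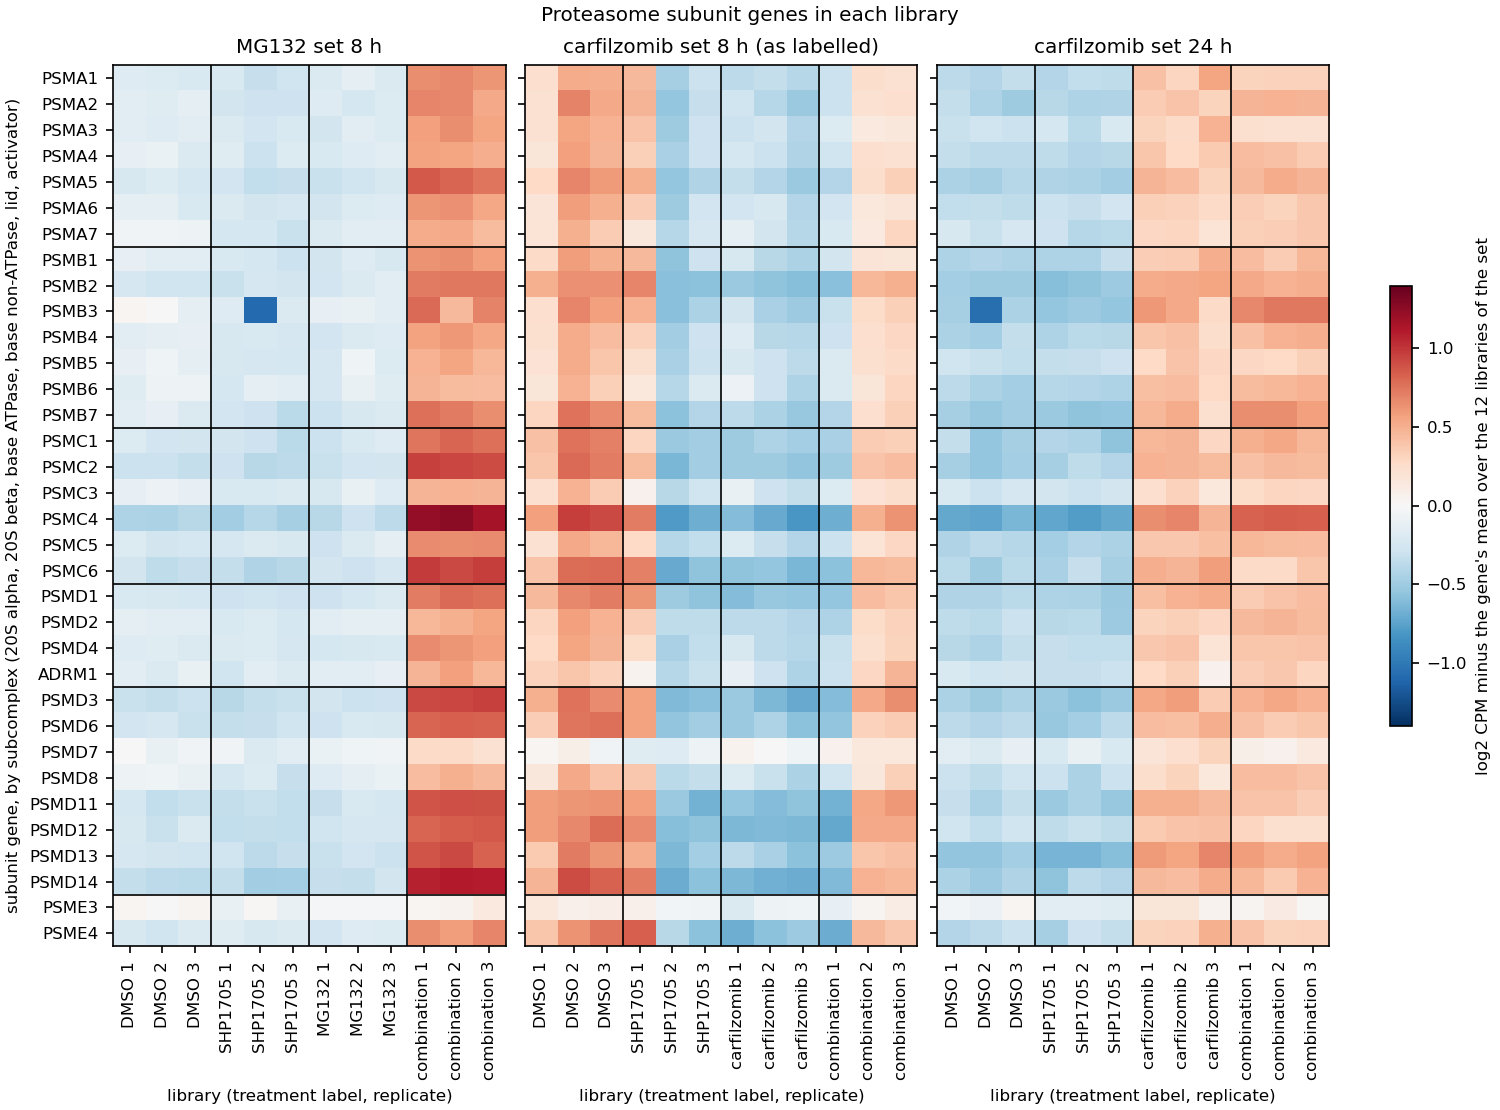
Level of each of the 34 subunit genes (rows, by subcomplex) in each library (columns, by label) of the 3 sets, as log2 CPM minus the gene's mean over the 12 libraries of its set. Red cells lie above and blue cells below that mean; the combination of the MG132 set and both carfilzomib groups at 24 h are red in nearly every row, and PSME3 and PSMD7 are pale in all sets.

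The first comparison, of MG132 alone with DMSO, asked how transcripts of the target complex responded to 100 nM of the inhibitor. No subunit was called (0 of 34), as for all 16591 genes tested (0%), and the median log2 fold change of the subunits was -0.03. PSMB5, the chymotrypsin-like subunit on which both inhibitors act, was at 104, 108 and 102 CPM in DMSO and 95.6, 108 and 98.7 with MG132. The ATPase PSMC4 was at 120, 119 and 124 CPM in DMSO and 124, 132 and 126 with MG132, just above the DMSO range. Its log2 fold change of 0.07 ± 0.04 was the highest of the 34 and did not pass the test (edgeR, adjusted p = 0.532), and PSMA7 was lowest at -0.11. Levels are shares of a library, so fewer cells making a transcript and less of it per cell cannot be told apart, nor can a change of total RNA be seen. Without adjustment, 5 subunits were lower at a p under 0.05, where 5.01% of all genes were. DESeq2 called 1 subunit lower, among 64 lower of the 1846 genes to which it gave an adjusted p.

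SHP1705 alone in the MG132 set gave small decreases. Of 34 subunits, 6 fell and 0 rose, where 4.08% of all genes tested were called lower and 3.45% higher. The 6 were the alpha subunits PSMA7 (-0.21 ± 0.03) and PSMA2 (-0.13 ± 0.04), the beta subunits PSMB7 (-0.15 ± 0.04), which is the trypsin-like protease, and PSMB1 (-0.11 ± 0.03), the ATPase PSMC3 (-0.11 ± 0.03) and the lid subunit PSMD8 (-0.17 ± 0.03). PSMA7 was at 346, 346 and 343 CPM in DMSO and 304, 302 and 291 with SHP1705, and the groups did not overlap. Over all 34 the median was -0.07, against -0.00 over all genes, and 15 subunits lay wholly below DMSO where 13.1% of all genes did. Leaving out SHP1705 replicates 2 and 3, whose POSTN level was 28.2 and 29.4 CPM, together with MG132 replicates 1 and 3, left 0 calls, with a single SHP1705 library that was assumed to vary like the other groups. Single libraries mattered as well, with 2 to 5 subunits called lower when any 1 DMSO or SHP1705 library was left out. The part of the fibroblast transcripts in these decreases was not tested.

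PSMB3 stood apart in its spread. It was at 252, 134 and 248 CPM in the 3 SHP1705 libraries of the MG132 set and at 358, 237 and 363 in DMSO at 24 h. A single library of each group was low, SHP1705 replicate 2 and DMSO replicate 2, while the other subunits of those libraries lay with their groups. The coefficient of variation of PSMB3 in these groups was 31.8% and 22.4%, and the next largest value of any other subunit in both sets was 10.5% (PSMB7, carfilzomib at 24 h). Its log2 fold change for SHP1705 in the MG132 set, -0.40 ± 0.14, was the most negative of the 34 and did not pass the test (edgeR, adjusted p = 0.106). By gene name, GENCODE 29 lists 1 pseudogene of PSMB3, and 27 pseudogenes of 10 subunits in all, 13 of them of PSMC1. Reads of these genes could be split to them.

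MG132 with SHP1705 raised the subunit genes as a group. Against DMSO 33 of 34 rose and 0 fell, where 29.2% of all genes tested were called higher and 29.7% lower. The median log2 fold change was 0.82 over the 34 and -0.01 over all genes, and 28 subunits rose at least 1.5-fold. PSMC4, an ATPase of the base, rose most, to 380, 390 and 362 CPM from 120, 119 and 124 in DMSO (1.64 ± 0.04), the 400th largest log2 fold change of the 16591 genes. The lid deubiquitinase PSMD14, which cuts the ubiquitin chain from the substrate, went from 163, 159 and 159 CPM to 434, 442 and 440 (1.45 ± 0.04). No combination library overlapped a DMSO library for either gene. Each of the 33 lay wholly above DMSO, as did 31.5% of all genes.

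The subcomplexes rose by different amounts. ATPase genes had a median log2 fold change of 1.14 and lid genes of 1.12, against 0.76 for the alpha ring, 0.70 for the beta ring and 0.73 for the other base subunits. Of the 12 genes that at least doubled, 4 were ATPases (PSMC1, PSMC2, PSMC4 and PSMC6) and 6 were lid subunits (PSMD3, PSMD6, PSMD11, PSMD12, PSMD13 and PSMD14). The other two were PSMA5 (1.03 ± 0.03) and PSMB2 (1.00 ± 0.03). These differences between subcomplexes are given as a description, without a test. The catalytic subunit PSMB5 rose by 0.61 ± 0.04, to 158, 165 and 155 CPM in the combination. The other catalytic subunits, PSMB6, which is caspase-like, and PSMB7, rose by 0.55 ± 0.04 and 0.87 ± 0.04. Over all 34 the median was 0.82, with PSMB5 and PSMB6 below it and PSMB7 above. The ubiquitin receptors PSMD4 (0.81 ± 0.03) and ADRM1 (0.66 ± 0.04) and the scaffolds PSMD1 (0.99 ± 0.03) and PSMD2 (0.65 ± 0.03) also rose.

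At the low end stood PSMD7 and PSME3. PSMD7, the catalytically inactive partner of PSMD14 in the lid, was at 103, 95.7 and 99.9 CPM in DMSO and 124, 124 and 119 in the combination (0.30 ± 0.04, adjusted p = 2.6e-06). The groups were apart but the rise was small, while PSMD14 beside it in the complex more than doubled. PSME3, a nuclear activator that opens the core without ubiquitin, was at 302, 297 and 304 CPM in DMSO and 304, 307 and 327 in the combination, and the groups overlapped (0.05 ± 0.03, edgeR, adjusted p = 0.184). The other activator, PSME4, rose (0.88 ± 0.04).

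**Figure D2:**
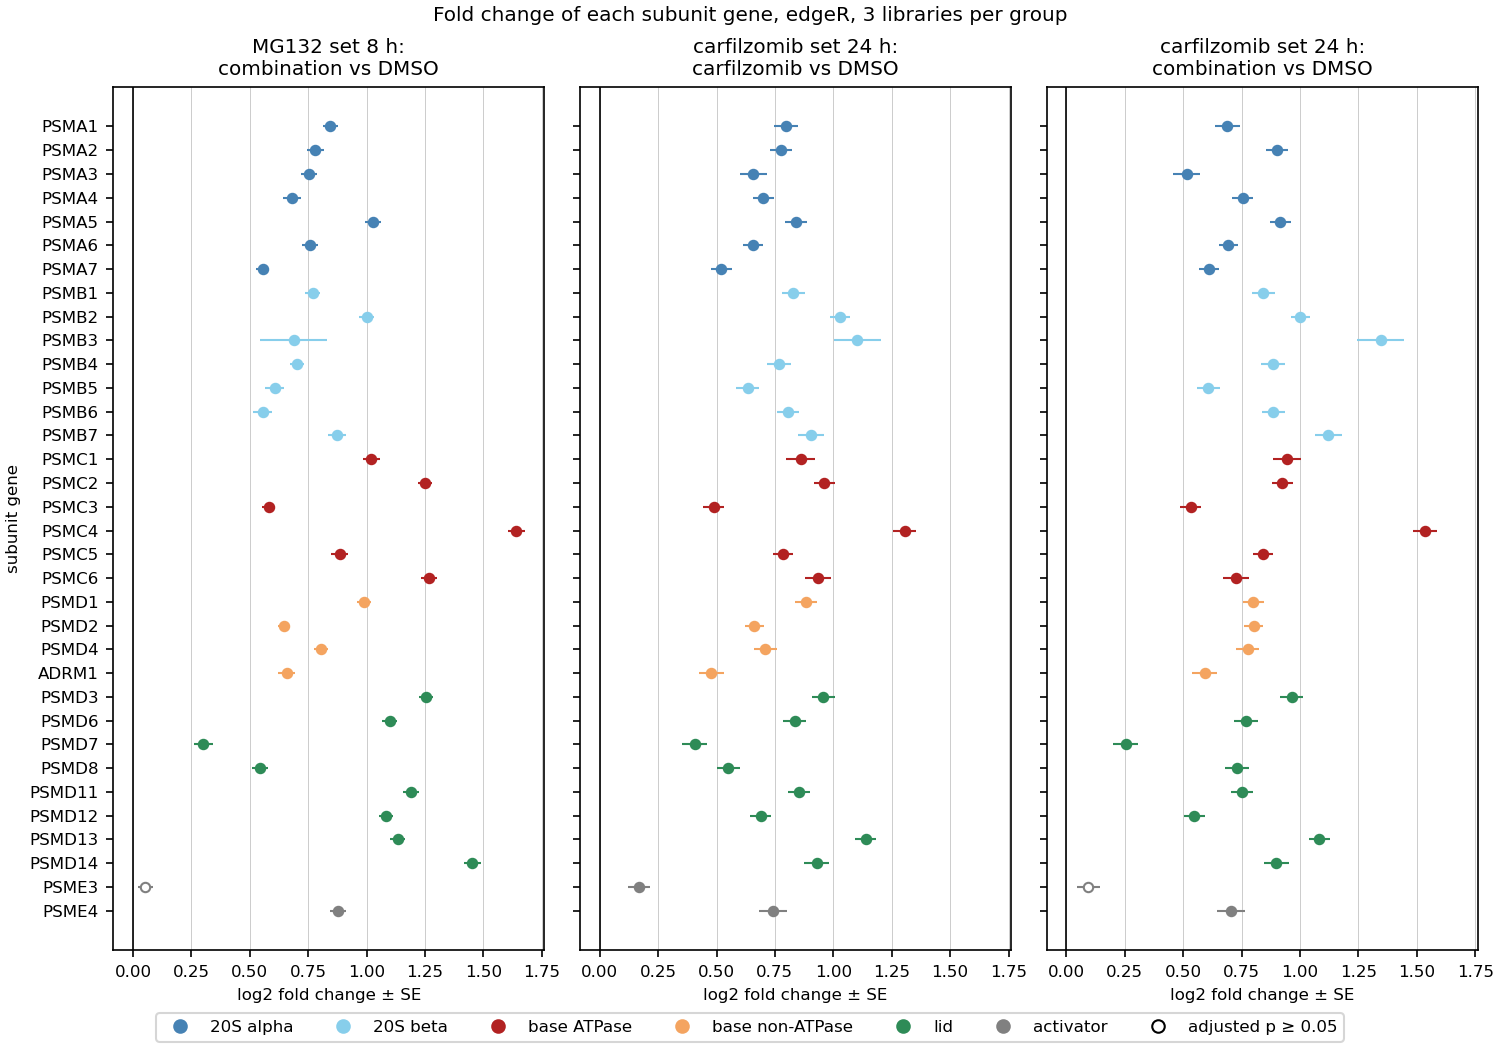
Log2 fold change with its standard error (x axis) of each subunit gene (y axis), coloured by subcomplex, in the combination of the MG132 set at 8 h and in carfilzomib and the combination at 24 h, each against DMSO with 3 libraries per group. Filled points passed an adjusted p of 0.05; PSMC4 is the rightmost point of each panel and PSME3 the leftmost.

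The combination was next set against MG132 alone. All 34 subunits were higher, where 28.2% of all genes tested were called higher, with a median log2 fold change of 0.85. PSMC4 rose by 1.57 ± 0.04 and PSMB5 by 0.66 ± 0.04. PSME3 (0.10 ± 0.03, edgeR, adjusted p = 0.019) was called in 6 of 12 alternative fits, with adjusted p from 0.014 to 0.17. The interaction term, the log2 effect of both drugs together minus the effects of each drug alone, was positive and passed the test for all 34 (24.7% of all genes had a positive call), with a median of 0.93 and values from 0.18 for PSME3 to 1.60 for PSMC4. Some of the listed fibroblast transcripts, mostly POSTN, were also higher in the combination than in DMSO, and their part in the rise of the subunits was not tested. Combination libraries held 98.3 to 242 CPM of POSTN, beside a mean subunit level of 8.36 to 8.39 (log2 CPM over the 34). In MG132 replicate 3 the values were 173 CPM of POSTN and a subunit level of 7.52, and the DMSO libraries had subunit levels from 7.51 to 7.53. Without the 4 libraries outside the combination that held POSTN, 33 subunits were called higher against MG132, where 22.3% of all genes were. That fit had 1 MG132 library, assumed to vary like the other groups.

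Carfilzomib alone for 24 h raised every subunit. All 34 rose against DMSO, where 10.1% of all 16183 genes tested were called higher, with a median log2 fold change of 0.79 against 0.00 over all genes. PSMC4 again rose most, from 189, 187 and 199 CPM to 488, 500 and 432 (1.31 ± 0.05), the 189th largest of all genes. PSMB5, the target, went from 124, 121 and 118 CPM to 182, 197 and 183 (0.63 ± 0.05, adjusted p = 1.1e-09). The groups did not overlap for any of the 34, as for 16.9% of all genes on the higher side. The rise was smallest for PSME3, from 251, 244 and 263 to 291, 292 and 267 CPM (0.17 ± 0.05, adjusted p = 0.013), and next for PSMD7, from 82.5, 80.1 and 84.9 to 105, 108 and 115 (0.41 ± 0.05). PSME3 was not called when DMSO replicate 1 or 2 or carfilzomib replicate 1 was left out, with adjusted p up to 0.086.

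The subcomplexes lay closer together than in the MG132 set, with medians of 0.90 for the ATPases, 0.84 for the lid, 0.83 for the beta ring, 0.70 for the alpha ring and 0.69 for the other base subunits. The lid genes other than PSMD7 ranged from 0.55 ± 0.05 (PSMD8) to 1.14 ± 0.05 (PSMD13). The largest beta subunit value was PSMB3 at 1.10 ± 0.10, which included the low DMSO replicate 2, and 0.92 was its lowest value in any alternative fit. Only 4 genes at least doubled, namely PSMC4, PSMD13, PSMB3 and PSMB2.

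The order of the subunits was compared between the MG132 table and the 24 h table, which share no library. Across the 34 genes, the log2 fold change of the combination of the MG132 set and that of carfilzomib at 24 h had a Pearson correlation of 0.817 and a Spearman correlation of 0.788. Against the combination at 24 h the correlations were lower, 0.640 and 0.519. This is a description across genes of one complex, which are not independent of each other. PSMC4 was first and PSME3 and PSMD7 were last both in the combination of the MG132 set and with carfilzomib at 24 h. The lid subunits PSMD14 (1.45 against 0.93) and PSMD12 (1.08 against 0.69) were lower at 24 h, and PSMB6 (0.55 against 0.81) and PSMB3 (0.69 against 1.10) were higher. Drug, dose, time and table all differ between these values, so the differences were not tested.

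**Figure D3:**
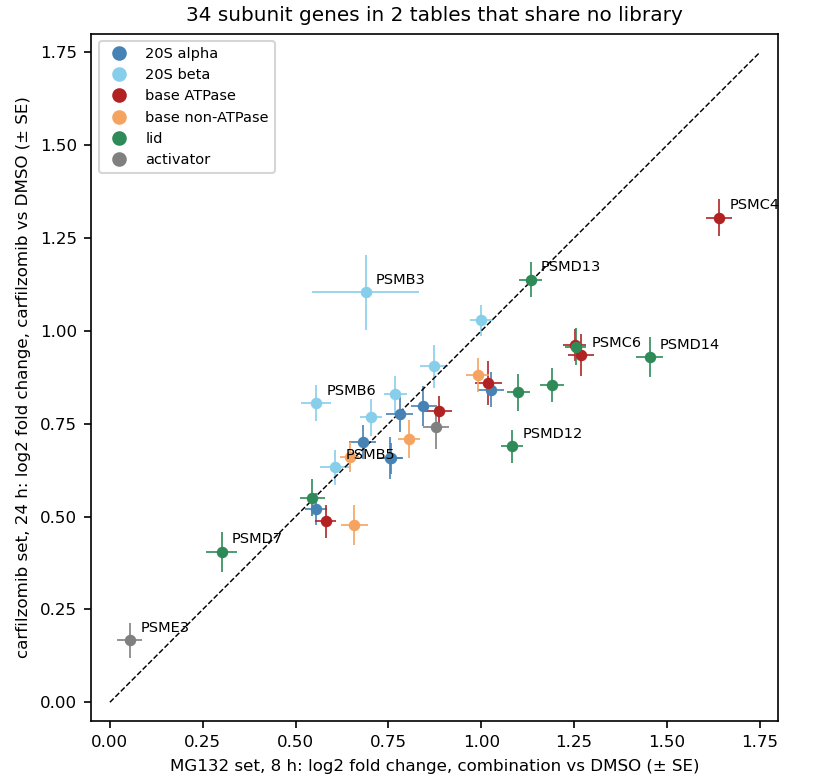
Log2 fold change with standard errors of the 34 subunits for MG132 with SHP1705 at 8 h (x axis) and in carfilzomib at 24 h (y axis), each against its own DMSO libraries, coloured by subcomplex; the dashed line marks equal values. PSMC4 lies at the top right at 1.64 and 1.31, PSME3 at the bottom left at 0.05 and 0.17, and most lid and ATPase genes fall below the line.

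SHP1705 alone at 24 h changed no subunit by the test. Of 34, 0 were called with edgeR, where 4.46% of all genes tested were called in either direction, and DESeq2 called 0 as well. At an unadjusted p under 0.05, 4 were lower, a share near the 8.63% of all genes that were. The median was -0.02, the values ran from -0.13 (PSMD11) to 0.10 (PSMB3), and PSMB5 was at 119, 120 and 123 CPM, inside its DMSO range of 118 to 124.

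Adding SHP1705 to carfilzomib for 24 h kept the subunits high. Against DMSO 33 of 34 rose, where 13% of all genes tested were called higher, with a median of 0.79 and PSMC4 at 552, 559 and 554 CPM (1.54 ± 0.05). PSME3 at 266, 281 and 262 CPM overlapped DMSO and was not called (0.09 ± 0.05, edgeR, adjusted p = 0.152). Compared with carfilzomib directly, 4 subunits were higher and 2 lower, where 4.36% of all genes were called higher and 4.67% lower. The higher ones were PSMC4 (0.23 ± 0.05), PSMB7 (0.22 ± 0.06), PSMD8 (0.18 ± 0.05) and the base scaffold PSMD2 (0.14 ± 0.04), and the lower ones were the ATPase PSMC6 (-0.21 ± 0.05) and the lid subunit PSMD12 (-0.14 ± 0.04). PSMC6 was at 148, 144 and 156 CPM with carfilzomib and 126, 125 and 136 in the combination. The largest increase of the 6 was 1.17-fold, and 2 ATPases of one ring, PSMC4 and PSMC6, moved in opposite directions by small amounts. PSMC4 was called in 11 of 11 alternative fits and PSMB7 and PSMC6 in 9, but PSMD12 in 3, and 1 to 5 subunits were called higher and 0 to 3 lower when 1 library was left out, with the lowest counts without combination replicate 1 or 2.

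This added difference varied with the base composition and the level of the gene. The log2 fold change of the combination against carfilzomib correlated across the 34 genes with the G+C content of the transcripts (Spearman 0.547, Pearson 0.542) and with the level per kilobase in DMSO (Spearman 0.626). The 2 subunits called lower had 37.9 and 38.1% G+C, and the 4 called higher had 48.7 to 57.2%. For the combination of the MG132 set and for carfilzomib at 24 h, each against DMSO, the Spearman correlation with G+C was -0.316 and -0.100. The part of base composition in the 6 calls was not tested. The interaction term at 24 h passed the test for 0 of 34 subunits with edgeR (0.482% of all genes in either direction), and 6 were positive and 1 negative at an unadjusted p under 0.05, where 7.10 and 6.51% of all genes were. DESeq2 called 5 positive, among 193 positive of the 6281 genes to which it gave an adjusted p. The largest term was that of PSMC4, 0.27 ± 0.07 (edgeR, adjusted p = 0.084).

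**Figure D4:**
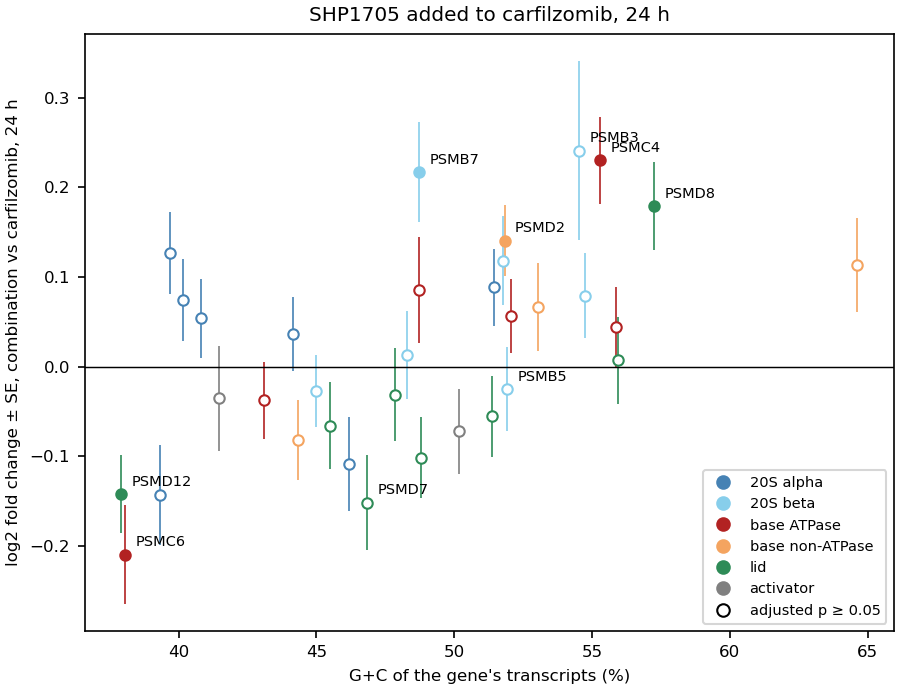
Log2 fold change with standard error of each subunit gene between the combination and carfilzomib at 24 h (y axis) against the G+C percentage of its transcripts (x axis), coloured by subcomplex, with filled points for the 6 genes that passed an adjusted p of 0.05. PSMC6 and PSMD12 lie at the low end of both axes and PSMC4 and PSMD8 at the high end.

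In the carfilzomib set at 8 h, labels and levels disagreed, so each value is given by the label of its library. HSPA1A, the main inducible chaperone of the heat shock response, was at 14559, 23605 and 23242 CPM in the libraries labelled DMSO and at 792, 726 and 896 in those labelled carfilzomib. It was at 19856, 705 and 693 in those labelled SHP1705 and at 892, 12020 and 15052 in those labelled combination. PER3, a clock gene, was at 4.46 to 5.07 CPM with SHP1705 and 13.8 to 14.7 in DMSO in the MG132 set, and at 0.709 to 1.43 and 18.9 to 22.9 at 24 h. In the 8 h set it was at 8.19, 2.06 and 1.55 CPM in the libraries labelled DMSO, 2.25, 9.62 and 7.91 in those labelled SHP1705, 6.78, 1.26 and 1.69 in those labelled carfilzomib and 1.92, 7.69 and 8.20 in those labelled combination. Replicate 1 of each of these 4 labels thus differed from replicates 2 and 3 in HSPA1A, in PER3 or in both. Replicates 2 and 3 went against their labels too. Under DMSO they had high HSPA1A and low PER3, like SHP1705 replicate 1, and under SHP1705 the reverse, like carfilzomib replicate 1. Under carfilzomib both genes were low, as in combination replicate 1, and under combination both were higher, as in DMSO replicate 1. Whether labels were exchanged was not tested. No library was moved to another group.

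The subunit genes were high in the same libraries as HSPA1A. PSMC4 was at 392, 515 and 499 CPM in the libraries labelled DMSO and 433, 152 and 164 in those labelled SHP1705. It was at 174, 162 and 150 in those labelled carfilzomib and 164, 371 and 407 in those labelled combination. The 6 libraries with the most HSPA1A, the 3 labelled DMSO, SHP1705 replicate 1 and combination replicates 2 and 3, were also the 6 highest for 33 of 34 subunits, as they were for 17.5% of all genes tested. The exception, PSMD7, was at 85.3 to 107 CPM in all 12 libraries, and PSME3 ranged little too, from 288 to 366. PSMB5 was at 230, 287, 261 and 233 CPM in the libraries labelled DMSO and SHP1705 replicate 1, at 234 and 239 in combination replicates 2 and 3, and at 145 to 174 in the other 6.

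**Figure D5:**
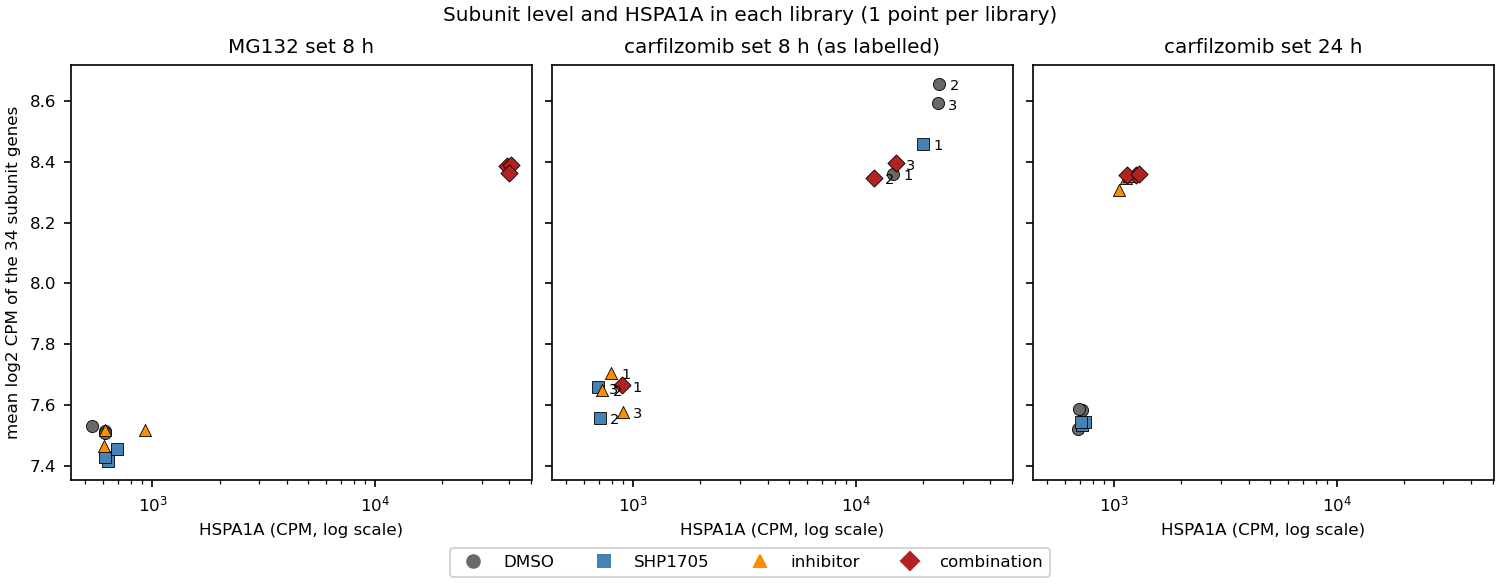
Mean log2 CPM of the 34 subunit genes (y axis) against HSPA1A in CPM on a log scale (x axis), 1 point per library, with the symbol giving the treatment label and, for the carfilzomib set at 8 h, the replicate number. High subunit levels go with HSPA1A of at least 12020 CPM in the MG132 set and the carfilzomib set at 8 h, but with HSPA1A of 1046 to 1290 CPM at 24 h.

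As labelled, the subunits were lower with carfilzomib than with DMSO at 8 h, against the direction at 24 h. Of 34, 32 were called lower, where 11.3% of all 15577 genes tested were, with a median of -0.87 and PSMC4 at -1.53 ± 0.39. This call fell to 0 subunits when DMSO replicate 2 or 3 or any of the 3 carfilzomib libraries was left out, and to 0 with the replicate number as a block. No subunit was called for SHP1705 (median -0.56), for the combination against DMSO (-0.39), for the combination against carfilzomib (0.47) or for the interaction (1.02), where edgeR called 0% of all genes. At an unadjusted p under 0.05, 26 subunits were lower with SHP1705 (5.31% of all genes) and 1 in the combination against DMSO (2.99%). By the same measure 18 were higher in the combination against carfilzomib (3.70%) and 33 in the interaction (11.7%). DESeq2 called 14 positive in the interaction, where it called 1.20% of all genes positive, and 0 in the other 3. A fit without the 4 libraries numbered 1 was tried after the data were seen and called more of all genes. That fit kept labels that HSPA1A and PER3 of replicates 2 and 3 go against, so its calls hold only as far as those labels do. It had 33 subunits lower with carfilzomib (median -1.02), where 26.9% of all genes were, and 32 lower with SHP1705, where 24.8% were. In the combination 25 were lower than in DMSO (1408 of 15651 genes tested) and 32 higher than with carfilzomib (19.5%).

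The change from 8 h to 24 h rests on those labels. In one fit of all 36 libraries, the effect of carfilzomib at 24 h minus that at 8 h was positive for 34 of 34 subunits (20% of all genes tested were called higher), with a median of 1.65. That of the combination was positive for 32 of 34 (9.72% of all genes), with a median of 1.18. These differences hold only as far as the 8 h labels do, and no direction over time is read from them.

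At 24 h HSPA1A and the subunits were both higher with carfilzomib or the combination than in DMSO or with SHP1705. HSPA1A was at 690 to 735 CPM in DMSO and SHP1705 and at 1046 to 1290 with carfilzomib or the combination. The mean log2 CPM of the subunits was 7.52 to 7.59 and 8.31 to 8.36 in the same order. In the MG132 set the combination had 38927 to 40611 CPM of HSPA1A and a subunit level of 8.36 to 8.39. The subunit level thus reached the same range in both sets beside very different HSPA1A levels.

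The other genes of the proteasome pathway are given by list, beside the shares of all genes called in the same comparison. In the combination of the MG132 set against DMSO those shares were 29.2% higher and 29.7% lower, and of 9 assembly chaperones 2 rose and 5 fell (median -0.09). POMP, which matures the core, rose (0.70 ± 0.04), while PSMG3 fell by 0.94 on the log2 scale and PSMG4 by 0.49. With carfilzomib at 24 h, where 10.1% of all genes were called higher and 11.4% lower, only POMP of the 9 was called (0.78 ± 0.05). In the combination at 24 h, where 13% were higher and 14.3% lower, POMP rose (0.94 ± 0.05) and PSMG3 fell by 0.24.

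None of the 5 immunoproteasome genes rose in these 3 comparisons. In the combination of the MG132 set 3 of the 5 fell, where 29.7% of all genes did. PSMB9 (-0.86 ± 0.07), PSMB8 (-0.34 ± 0.05) and PSMB10 (-0.22 ± 0.06), the interferon-induced catalytic subunits that replace PSMB6, PSMB5 and PSMB7, fell, and the activator genes PSME1 and PSME2 were at -0.00 and -0.05 and not called. At 24 h all 5 fell with carfilzomib (median -0.39, against 11.4% of all genes called lower) and with the combination (median -0.53, against 14.3%), PSMB9 by 0.67 and 0.63 and PSMB8 by 0.50 and 0.55.

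Among 17 factors that bind the proteasome, 10 rose and 3 fell in the combination of the MG132 set (median 0.58), where 29.2% of all genes rose and 29.7% fell. TXNL1, a thioredoxin-like protein of the 19S particle, rose by 1.41 ± 0.04, the shuttle factor UBQLN1 by 1.10 ± 0.03, ZFAND5 by 1.06 ± 0.03 and the deubiquitinase USP14 by 1.04 ± 0.03. The other deubiquitinase, UCHL5, was at 0.06 ± 0.05 and not called. Carfilzomib at 24 h raised 8 and lowered 2 of the 17 (median 0.18), where 10.1% of all genes rose and 11.4% fell. Those raised included TXNL1 (0.89 ± 0.07), USP14 (0.74 ± 0.06), UBQLN1 (0.68 ± 0.05) and the small lid subunit gene SEM1 (0.64 ± 0.06). In the combination at 24 h 8 rose and 1 fell, where 13% of all genes rose and 14.3% fell.

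Of 11 regulators of subunit transcription, 9 rose and 1 fell in the combination of the MG132 set (median 0.36), against 29.2 and 29.7% of all genes. NFE2L1 itself rose by 0.15 ± 0.03 and its relative NFE2L2 by 0.74 ± 0.03. Their small MAF partners rose more, MAFG by 1.45 ± 0.04, MAFF by 1.25 ± 0.04 and MAFK by 0.93 ± 0.05. DDI2, the protease that activates the NFE2L1 protein, fell by 0.54, and NGLY1, which removes its sugars, rose by 0.23 ± 0.05. With carfilzomib at 24 h 2 of the 11 were called higher and 1 lower, counts near the shares of all genes (10.1 and 11.4%). They were NGLY1 (0.29 ± 0.07), MAFG (0.21 ± 0.05) and SYVN1 (-0.16 ± 0.06), and NFE2L1 (-0.11 ± 0.05) was not called. Activity of NFE2L1 is set at the protein level and was not measured here.

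The fold changes are set beside the promoter letters as a description, without a test. Genes with the response element core had a median log2 fold change of 0.99 in the combination of the MG132 set (range 0.66 to 1.64, 7 genes), and the 22 without it had 0.81 (0.05 to 1.45). For carfilzomib at 24 h the medians were 0.88 and 0.78. PSMD14, among the highest, and PSME3 and PSMD7, the lowest, all lack the letters in the windows printed above, and the windows say nothing of elements outside them.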

How the data were processed

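Counts per gene were deposited by the authors as 3 tables of raw whole numbers, made with Trimmomatic, FastQC, HISAT2 and featureCounts on hg38 per the submitters' processing notes. No source used here gives versions, annotation or strand setting, and reads shared with overlapping genes (10 subunits) cannot be separated. Groups came from the labels. All 12 libraries of a table entered 1 fit with edgeR 4.0.16 (R 4.3.3, TMM factors, filterByExpr, quasi-likelihood F-test, prior count 0.125), and p-values were Benjamini-Hochberg adjusted over all genes. Joint differences used all 36 libraries and 17389 genes. None of the 630 pairs among the 36 libraries had identical counts. Every subunit could be named, and values per library were due for PSMB5, the extremes of each combination and comparisons with 5 or fewer calls; values of PSMA7, PSMB3 and PSMC6 were added after they were seen. Members and lists were chosen with earlier results of these data known. Promoters are RefSeq, GRCh38.p14, and exon lengths and pseudogenes are GENCODE 29. In simulated data only a small set of genes was changed, in the combination alone, and all else was drawn at DMSO levels. For the combination against DMSO, 38 of 50 genes changed 2-fold were recovered in the MG132 set (16036 genes). With carfilzomib 30 were recovered at 8 h (15062) and 36 at 24 h (15672). In the same order, 10.1, 4.40 and 4.10% of the calls were false. The real MG132 set had far broader changes (29.2% of genes called higher and 29.7% lower), so these rates may not hold for it. Figures used matplotlib 3.10.9.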

Additional observations from a re-analysis of the deposited data

Results flagged for a closer look

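The interaction term of the MG132 set was positive for 34 of 34 subunits, meaning that the effect of MG132 differed with and without SHP1705 by the test of that difference. The effect of carfilzomib differed between 24 h and 8 h for 34 subunits and that of the combination for 32, both by the test of the difference in the fit of 36 libraries and both resting on the 8 h labels that HSPA1A and PER3 contradict. No direction over time is read from these differences.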

How the results depend on the processing

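No called value changed sign under any alternative, and the counts of subunits called in the combination of the MG132 set, in carfilzomib and its combination at 24 h and in the 24 h minus 8 h differences stayed within 1.5 times. In the MG132 set, SHP1705 against DMSO called 6 lower and gave 2 to 5 with 1 library left out and 0 without the 4 libraries with POSTN, and MG132 alone gave 1 lower with DESeq2. In the carfilzomib set at 8 h, fitting without the filter on low counts called 32 lower for SHP1705, 7 lower for the combination against DMSO, 17 higher against carfilzomib and 32 higher in the interaction. Leaving out the 4 libraries numbered 1 gave 32, 25, 32 and 34, and DESeq2 gave 14 in the interaction. With 1 library left out, 0 to 32 were lower for SHP1705, 0 to 32 lower for carfilzomib and 0 to 32 higher in the interaction. At 24 h, the combination against carfilzomib gave 1 to 5 higher and 0 to 3 lower with 1 library left out, and 1 lower without the filter and 1 with only the groups compared. The interaction at 24 h gave 3 higher without the filter, 5 with DESeq2 and 0 to 4 with 1 library left out. The cause of these shifts was not tested. Deviations of samples with the same replicate number correlated weakly in the MG132 set and at 24 h (-0.144 to 0.191). At 8 h with carfilzomib the correlations were strong in places but of both signs (-0.829 to 0.408). The number was not taken to pair samples in any set. The replicate block changed 1 count by over 1.5 times, carfilzomib at 8 h from 32 lower to 0. Precision was lowest in the carfilzomib set at 8 h, with a fitted coefficient of variation of 0.172, compared with 0.0455 for MG132 and 0.0672 for carfilzomib at 24 h.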
